A study of Arabidopsis thaliana with 9 samples.

Results

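The hypoxia response genes are 10 Arabidopsis thaliana genes chosen by their locus identifiers from 33323 identifiers in the count files. They are ADH1, PDC1, SUS1, SUS4, HB1, LBD41, HRE1, HRE2, PCO1 and PCO2. Of these, 9 passed the filter on low counts, together with 20672 genes in all, and HRE2 did not. Transcripts were counted by 3′ end sequencing in 2-week-old seedlings raised on MS medium, with 3 libraries of each genotype, numbered 1 to 3 in the sample titles. The genotypes were pca31, the atrzf1 mutant and wild type Col-0 (WT). According to the series text pca31 suppresses atrzf1 in the osmotic stress response, and the suppressor named in its title is RGL1, a rhamnogalacturonan lyase. The labels name no hypoxia or osmotic treatment of these seedlings, no allele and no construction of the mutant lines. AtRZF1 transcripts, which check the labels, were at 1.16 to 3.18 CPM (counts scaled to the library size) in pca31 libraries, 2.11 to 4.6 CPM in atrzf1 libraries and 24.0 to 31 CPM in WT libraries. Both mutant lines thus had a low AtRZF1 level. Separate cultures are not stated for the 3 libraries of any genotype. The p-values therefore refer to the spread among these samples alone, and that spread may be technical.

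When oxygen runs short, plant cells make ATP by glycolysis and regenerate NAD+ by fermenting pyruvate to ethanol. Plant cysteine oxidases (PCOs) use oxygen to oxidise a cysteine exposed at the start of certain transcription factors, which arginyl transferases and the ubiquitin ligase PRT6 then mark for degradation. Low oxygen stops this, and the stabilised group VII ethylene response factors (ERF-VIIs) switch on a core set of hypoxia genes, among them several of the 10 described here. The set includes PCO1 and PCO2 themselves, which gives the pathway a feedback. In Arabidopsis roots and meristems some of these genes are known to be transcribed without applied hypoxia.

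The libraries differed by number more than by genotype, and total counts ran from 22478803 to 24090783 in number 3 libraries and from 27712644 to 33073605 in the others. The labels do not say what the number stands for. Each number held 1 library of each genotype, and libraries of the same number deviated together. Number 3 is thus 1 numbered set, and n = 3 for it counts libraries and not repeated sets. The p-values of number contrasts below have the same limit. The summed level of 17 root markers was 1688 to 2507 CPM in the 3 libraries of number 3, with 15 to 17 markers detected, and 38.6 to 174 CPM in the 6 libraries of numbers 1 and 2, with 10 to 14 detected. EXPA7, a root hair expansin, had 0 counts in all 6 libraries of numbers 1 and 2. The summed level of 9 floral markers was 18.4 to 64.7 CPM in pca31, 19.9 to 69.7 CPM in atrzf1 and 9.66 to 13.8 CPM in WT. For 12 anther and pollen markers it was 8.01 to 148 CPM in pca31, 5.43 to 111 CPM in atrzf1 and 4.69 to 13.3 CPM in WT, and 10 of the 12 had 0 counts in each number 3 library. The summed level of 6 seed markers stayed at or below 1.44 CPM in every library, with CRC, SESA3 and OLEO2 at 0 throughout. In RNA from mixed tissue a smaller share of a cell type cannot be told apart from less RNA per cell. The part of organ makeup in the results below was not tested.

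HRE1 and HRE2 are ERF-VII factors, as are RAP2.12, RAP2.2 and RAP2.3, which are listed here among the oxygen-sensing genes and not among the 10. Their first coding bases show the feature through which oxygen acts on them: an ATG followed by a cysteine codon. The first 30 coding bases below were read from the RefSeq annotation of TAIR10.1, with both codons in capitals. HRE1 carries this start in 2 of its 3 annotated transcripts.
HRE1: ATGTGCggaggagctgtaatttccgattac
HRE2: ATGTGTgggggagctatcatttctgatttc
RAP2.12: ATGTGTggaggagctataatatccgatttc
RAP2.2: ATGTGTggaggagctataatctccgatttc
RAP2.3: ATGTGTggcggtgctattatttccgattat
HRE1 uses TGC and the other 4 use TGT for the cysteine, and the bases that follow are alike in all 5. VRN2, a chromatin protein, and ZPR2, a small leucine zipper protein of the shoot apex, are targets of the same route outside the ERF family and begin with the same pair of codons, VRN2 in 1 of its 2 annotated transcripts.
VRN2: ATGTGTaggcagaattgtcgcgcgaaatcc
ZPR2: ATGTGTctgacaacttcagagccaccattc

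PDC1, PCO2 and PCO1 are the members whose upstream sequence is printed, because PDC1 and PCO2 rose in number 3 libraries while PCO1 fell. Over 9 libraries the Pearson correlation of PCO1 was -0.66 with PDC1 and -0.56 with PCO2. After the mean of each number was subtracted, these were -0.28 and -0.088. PCO1 was not the only such member, since SUS1 was at -0.70 with PDC1 and -0.67 with PCO2 over 9 libraries. The 250 bases before each annotated gene start follow, 5′ to 3′ on the strand of the gene, from TAIR10.1 (RefSeq), with AAACC or its reverse complement GGTTT in capitals. PDC1 lies on the minus strand at chr4:15954804-15955053, PCO2 on the plus strand at chr5:15974020-15974269 and PCO1 on the plus strand at chr5:4898391-4898640.
PDC1: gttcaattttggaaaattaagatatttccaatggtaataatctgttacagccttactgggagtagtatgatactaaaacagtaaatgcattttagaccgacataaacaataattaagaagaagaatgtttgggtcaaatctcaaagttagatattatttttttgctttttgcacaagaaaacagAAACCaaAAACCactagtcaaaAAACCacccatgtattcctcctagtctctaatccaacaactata
PCO2: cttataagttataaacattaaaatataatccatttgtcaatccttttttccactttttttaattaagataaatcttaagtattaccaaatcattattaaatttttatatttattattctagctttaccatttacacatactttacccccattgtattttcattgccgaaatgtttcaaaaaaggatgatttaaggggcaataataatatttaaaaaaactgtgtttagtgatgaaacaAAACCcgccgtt
PCO1: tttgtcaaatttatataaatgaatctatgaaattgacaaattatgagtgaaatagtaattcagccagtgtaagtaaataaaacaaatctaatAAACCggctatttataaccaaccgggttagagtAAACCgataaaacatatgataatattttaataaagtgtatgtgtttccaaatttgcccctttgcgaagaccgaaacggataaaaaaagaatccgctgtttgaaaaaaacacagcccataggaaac
AAACC is part of the anaerobic response element described for maize and Arabidopsis ADH1. PDC1 held 3 copies, 66, 59 and 44 bases before the gene start, PCO1 held 2 and PCO2 held 1. The letters occurred on either strand in 6 of the 10 members, ADH1, PDC1, SUS1, HRE1, PCO1 and PCO2, and in 54.7% of 27443 upstream windows of the same length. CACGTG, the G-box, occurred in the windows of ADH1 and LBD41 and in 6.49% of all windows. GCCGCC, the core of the GCC-box that ethylene response factors bind, occurred in 0 of 10 members and in 1.87% of all windows. A match describes these letters only. With so small a share of all windows, 0 of 10 for GCCGCC says little, and no other letters were searched.

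All 10 members were at low to moderate levels. Summed over the 10, they reached 67.4 to 80.6 CPM in pca31, 68.5 to 88.5 CPM in atrzf1 and 61.5 to 80.5 CPM in WT, which overlap. Because 3′ end reads carry no gene length, CPM levels of different genes can be set side by side. By mean ± SD of the level over 9 libraries the order was SUS1 (20.3 ± 5.6 CPM), HB1 (14 ± 5.91), LBD41 (12.9 ± 3.15), ADH1 (8.85 ± 1.5), PCO1 (7.77 ± 3.67), HRE1 (5.46 ± 4.35), PDC1 (1.65 ± 1.58), PCO2 (1.57 ± 1.15), SUS4 (1.43 ± 1.14) and HRE2 (0.294 ± 0.238). Every pair of neighbours in this order overlapped in range. HRE1 was above PDC1, and SUS4 above HRE2, in 9 of 9 libraries, while other neighbours kept their order in 4 to 8 of 9.

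**Figure D1:**
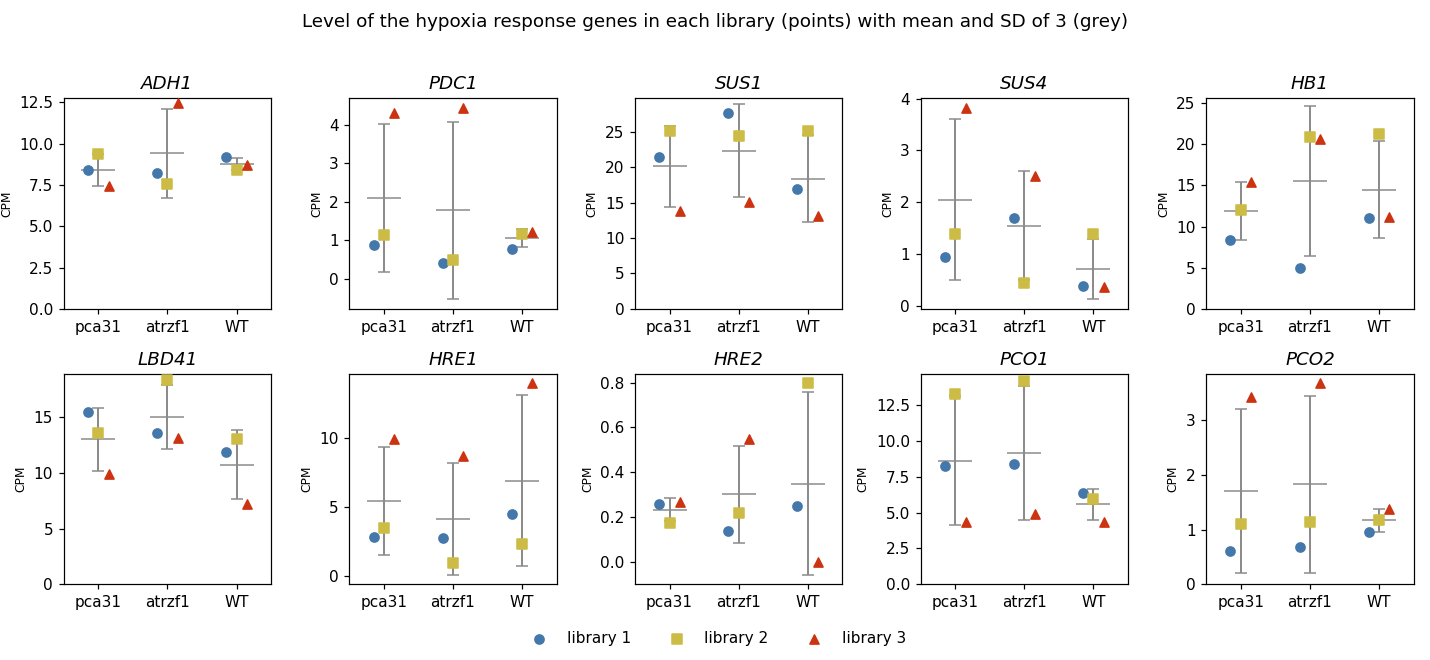
CPM of each of the 10 genes in every library, by genotype on the horizontal axis, with symbols for the library number and grey lines for the mean and SD over 3 libraries. Number 3 libraries (red triangles) sit apart for HRE1, where they are the highest of each genotype, and for SUS1 and PCO1, where they are the lowest.

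ADH1 (AT1G77120, chr1:28975255-28977417, plus strand) encodes alcohol dehydrogenase, which makes ethanol from acetaldehyde in the last step of fermentation. Its level was 8.40, 9.36 and 7.44 CPM in pca31 libraries 1, 2 and 3, against 8.21, 7.53 and 12.5 CPM in atrzf1 and 9.17, 8.39 and 8.73 CPM in WT. Only atrzf1 library 3 stood above the rest, and the genotypes overlapped. ADH1 had the smallest spread relative to its level among the 10 genes. Between number 3 and the other numbers its log2 fold change was 0.15 ± 0.20 (SE), with adjusted p = 0.569 (edgeR quasi-likelihood test, Benjamini-Hochberg adjustment over all genes, called when under 0.05), and without atrzf1 library 3 it was -0.12. ADH1 overlaps the minus strand gene AT1G77122 by 61 bases at its 3′ end. That neighbour was at 13.4 to 19.4 CPM, and the strand used in counting is not given in the sources used here.

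PDC1 (AT4G33070, chr4:15952257-15954803, minus strand) encodes pyruvate decarboxylase, which makes the acetaldehyde that ADH1 reduces. It was at 0.869, 1.13 and 4.32 CPM in pca31 libraries 1, 2 and 3, against 0.406, 0.482 and 4.44 CPM in atrzf1 and 0.782, 1.17 and 1.22 CPM in WT. The number 3 libraries of both mutants lay far above all others, and WT library 3 lay just above the highest library of numbers 1 and 2. Over the 3 genotypes PDC1 rose in number 3, to 3.33 ± 1.83 CPM (SD, n = 3) against 0.807 ± 0.319 CPM in numbers 1 and 2 (n = 6). The log2 fold change was 2.06 ± 0.49 (4.16-fold), with edgeR adjusted p = 0.00478. Without atrzf1 library 3 it was 1.35 and missed the threshold (edgeR adjusted p = 0.0921).

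SUS1 (AT5G20830, chr5:7050217-7055398, minus strand) encodes a sucrose synthase, which splits sucrose into fructose and UDP-glucose at a lower energy cost than invertase. Its level was 21.5, 25.1 and 13.8 CPM in pca31 libraries 1, 2 and 3, against 27.7, 24.4 and 15.0 CPM in atrzf1 and 16.9, 25.1 and 13.2 CPM in WT. Number 3 was the lowest library of every genotype. SUS1 fell in number 3, with a mean of 14 ± 0.952 CPM (n = 3) against 23.5 ± 3.76 CPM in numbers 1 and 2 (n = 6). Its log2 fold change was -0.74 ± 0.16, with edgeR adjusted p = 0.00267. With libraries scaled by their totals it was -0.37 and no longer passed (edgeR adjusted p = 0.0864).

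SUS4 (AT3G43190, chr3:15179010-15184105, minus strand) encodes the sucrose synthase closest to SUS1, with 84.4% identical coding bases. It was at 0.933, 1.39 and 3.82 CPM in pca31 libraries 1, 2 and 3, against 1.69, 0.438 and 2.51 CPM in atrzf1 and 0.391, 1.38 and 0.354 CPM in WT. Number 3 was the highest library in both mutants and the lowest in WT. The log2 fold change of number 3 against the other numbers was 0.82 ± 0.63 over the genotypes (edgeR adjusted p = 0.313). The last 300 transcript bases of SUS1 and SUS4, from which 3′ end reads come, were 52.9% identical, with a longest shared run of 14 bases.

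HB1 (AT2G16060, chr2:6982531-6983777, minus strand) encodes a phytoglobin, a haemoglobin that binds oxygen tightly and removes nitric oxide. Its level was 8.30, 12 and 15.4 CPM in pca31 libraries 1, 2 and 3, against 5.0, 20.8 and 20.7 CPM in atrzf1 and 11, 21.2 and 11.2 CPM in WT. Library 1 was the lowest of every genotype, and WT library 3 was close to it. HB1 rose in number 2 against number 1, at 18.0 ± 5.20 against 8.09 ± 2.99 CPM (SD, n = 3 each), with a log2 fold change of 1.13 ± 0.32 and edgeR adjusted p = 0.0266. That call was lost without WT library 2 (log2 fold change 1.00, edgeR adjusted p = 0.139), without atrzf1 library 1 (0.72, 0.131) or without atrzf1 library 2 (1.00, 0.116). Number 3 against the other numbers gave 0.40 ± 0.27 for HB1 (edgeR adjusted p = 0.246). This passed without WT library 3 (0.78, edgeR adjusted p = 0.0424) and with library totals (0.78, 0.0290).

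LBD41 (AT3G02550, chr3:536500-538126, minus strand) encodes a LATERAL ORGAN BOUNDARIES domain protein that is strongly induced by low oxygen. It was at 15.5, 13.6 and 9.93 CPM in pca31 libraries 1, 2 and 3, against 13.6, 18.3 and 13.2 CPM in atrzf1 and 11.9, 13 and 7.19 CPM in WT. Number 3 was again the lowest library of every genotype, although atrzf1 library 3 lay within the range of numbers 1 and 2. LBD41 fell in number 3 by 0.53 ± 0.17 on the log2 scale (edgeR adjusted p = 0.0250). The call was lost without any 1 of 6 of the 9 libraries, WT 1, WT 2, WT 3, atrzf1 2, pca31 1 and pca31 3. Over all 9 removals the log2 fold change of LBD41 ran from -0.66 to -0.40 and the edgeR adjusted p from 0.0136 to 0.169. The call was also lost with library totals (-0.16, edgeR adjusted p = 0.452) and without the genotype term (-0.50, 0.0571).

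HRE1 (AT1G72360, chr1:27241696-27242968, plus strand) is the ERF-VII gene known to be induced at the transcript level by hypoxia and to prolong the response. Its level was 2.80, 3.47 and 9.90 CPM in pca31 libraries 1, 2 and 3, against 2.74, 0.920 and 8.63 CPM in atrzf1 and 4.48, 2.27 and 13.9 CPM in WT. Each number 3 library was above every library of numbers 1 and 2, and WT library 3 was the highest. HRE1 rose in number 3, to 10.8 ± 2.76 CPM (n = 3) against 2.78 ± 1.19 CPM in numbers 1 and 2 (n = 6), with a log2 fold change of 2.01 ± 0.27 (4.03-fold) and edgeR adjusted p = 0.000108. The call held in each of the 9 fits with a library left out, with log2 fold changes of 1.84 to 2.3. HRE1 overlaps the minus strand gene P40, which encodes a cytosolic ribosomal protein, by 124 bases at its 3′ end. P40 had 492 to 514 CPM in number 3 libraries, against 688 to 1425 CPM in the other libraries. Its log2 fold change was -0.99 ± 0.16 (edgeR adjusted p = 0.000338). The strand used in counting is not given, and whether reads of P40 were counted for HRE1 was not tested.

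HRE2 (AT2G47520, chr2:19502776-19503702, minus strand) was the least abundant member. It had 8, 6 and 8 counts in pca31 libraries 1, 2 and 3, against 4, 5 and 15 in atrzf1 and 7, 19 and 0 in WT. At 0 to 0.797 CPM, against a floor of 0.0867 to 0.131 CPM for 3 counts, HRE2 did not pass the filter. Without a filter its log2 fold changes were -0.38 ± 1.31 in pca31 against atrzf1, -0.60 ± 1.31 in pca31 against WT and -0.22 ± 1.31 in atrzf1 against WT. HRE2 was not called in any of the 8 alternative fits that let it in, and errors of this size leave large differences undetected.

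PCO1 (AT5G15120, chr5:4898641-4900734, plus strand) encodes one of the cysteine oxidases whose transcript is itself induced by hypoxia. Its level was 8.27, 13.2 and 4.32 CPM in pca31 libraries 1, 2 and 3, against 8.35, 14.1 and 4.92 CPM in atrzf1 and 6.36, 5.96 and 4.36 CPM in WT. The number 3 libraries lay within a narrow band below all others, and in numbers 1 and 2 both mutants lay above WT. PCO1 fell in number 3, at 4.53 ± 0.334 CPM (n = 3) against 9.39 ± 3.48 CPM in numbers 1 and 2 (n = 6), with a log2 fold change of -0.98 ± 0.23 (edgeR adjusted p = 0.00404). With library totals the change was -0.62 and just missed the threshold (edgeR adjusted p = 0.0513).

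PCO2 (AT5G39890, chr5:15974270-15976270, plus strand) encodes the other hypoxia-induced cysteine oxidase. It was at 0.611, 1.10 and 3.42 CPM in pca31 libraries 1, 2 and 3, against 0.676, 1.14 and 3.68 CPM in atrzf1 and 0.959, 1.17 and 1.38 CPM in WT. As for PDC1, number 3 of both mutants stood out and WT library 3 was only slightly above the other WT libraries. PCO2 rose in number 3, at 2.83 ± 1.26 CPM (n = 3) against 0.943 ± 0.244 CPM in numbers 1 and 2 (n = 6), with a log2 fold change of 1.57 ± 0.41 (2.97-fold, edgeR adjusted p = 0.00847). Without pca31 library 3 it was 1.3 (edgeR adjusted p = 0.0869) and without atrzf1 library 3 it was 1.31 (0.10), and neither passed. PCO1 and PCO2 share 64.9% of coding bases and 50.1% of the last 300 transcript bases, with no shared run above 10 bases there.

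In number 3 against numbers 1 and 2, 6 of the 9 tested members were called, against 45.7% of all genes tested. PDC1, HRE1 and PCO2 were higher, where 23.6% of all genes were, and SUS1, LBD41 and PCO1 were lower, where 22.1% of all genes were. The median log2 fold change was 0.40 over the 9 members and 0.031 over all genes. With library totals the median of all genes moved to 0.39, 76.1% of all calls were higher against 51.6% with TMM scaling, and of the members 4 were higher (HB1 with the other 3) and 0 lower. Number 2 against number 1 gave 1 call among the 9 members, HB1, which was higher. Of all genes 21.9% were called there, 9.87% higher and 12.1% lower, so this single call says nothing about the members as a list. The hypoxia response genes moved in both directions between numbers, and calls in number 3 were common among all genes.

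**Figure D2:**
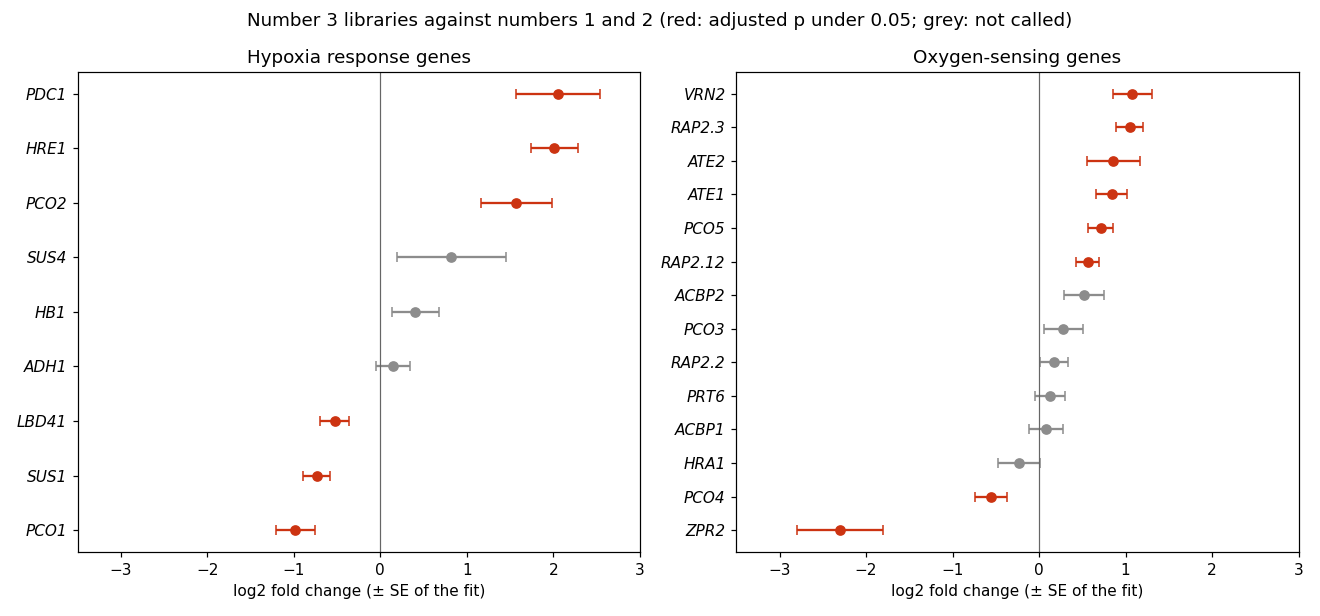
Log2 fold change (± SE of the edgeR fit) of number 3 libraries against numbers 1 and 2 for the 9 tested hypoxia response genes (left) and 14 oxygen-sensing genes (right), red where adjusted p was under 0.05. PDC1, HRE1 and PCO2 lie right of 0 and SUS1, LBD41 and PCO1 left of it, the last 3 no longer called with library totals.

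Genotype was the comparison for which the series was made, the question being whether AtRZF1 and RGL1 act on target genes in opposite directions. In pca31 against atrzf1, 0 of the 9 tested members were called (edgeR), against 0.00484% of all genes, and 0 had an unadjusted p under 0.05, against 0.213%. In pca31 against WT the counts were 0 and 0, against 0.00484% and 0.924% of all genes. In atrzf1 against WT they were 0 and 0, against 0% and 0.556%. DESeq2 and limma-voom also called 0 members in each comparison. None of these fits had the replicate number as a block, so differences between numbers stayed in their errors. With the block, 3.73% to 8.45% of all genes had an unadjusted p under 0.05 (edgeR). These comparisons share libraries, so their values are given side by side and not as independent results.

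The largest genotype estimate was that of SUS4, with log2 fold changes of 0.40 ± 0.84 in pca31 against atrzf1, 1.53 ± 0.87 in pca31 against WT and 1.13 ± 0.86 in atrzf1 against WT (edgeR). With 1 library left out at a time SUS4 ran from -0.44 to 0.93, 0.67 to 2.44 and 0.57 to 2.04 in these comparisons, with no call. For PDC1 the same 3 changes were 0.24 ± 0.98, 0.99 ± 0.99 and 0.75 ± 0.99, and for PCO2 they were -0.10 ± 0.79, 0.55 ± 0.79 and 0.65 ± 0.80. PCO1 gave -0.08 ± 0.48, 0.63 ± 0.49 and 0.72 ± 0.49. For PDC1 and PCO2 the error is about as large as the largest of the 3 changes, and no estimate of these 4 genes passed the test. LBD41 gave -0.21 ± 0.30, 0.28 ± 0.30 and 0.49 ± 0.30, and SUS1 gave -0.15 ± 0.35, 0.13 ± 0.35 and 0.28 ± 0.35. HRE1 was the member with lower estimates in both mutants than in WT, at 0.39 ± 0.90, -0.35 ± 0.90 and -0.75 ± 0.91, a sign that turned to 0.017 for pca31 against WT in numbers 1 and 2 alone. HB1 gave -0.38 ± 0.53, -0.28 ± 0.53 and 0.10 ± 0.53. ADH1 had the narrowest errors, at -0.16 ± 0.26, -0.06 ± 0.26 and 0.10 ± 0.26. A p-value above the threshold does not show that the genotypes had equal levels.

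**Figure D3:**
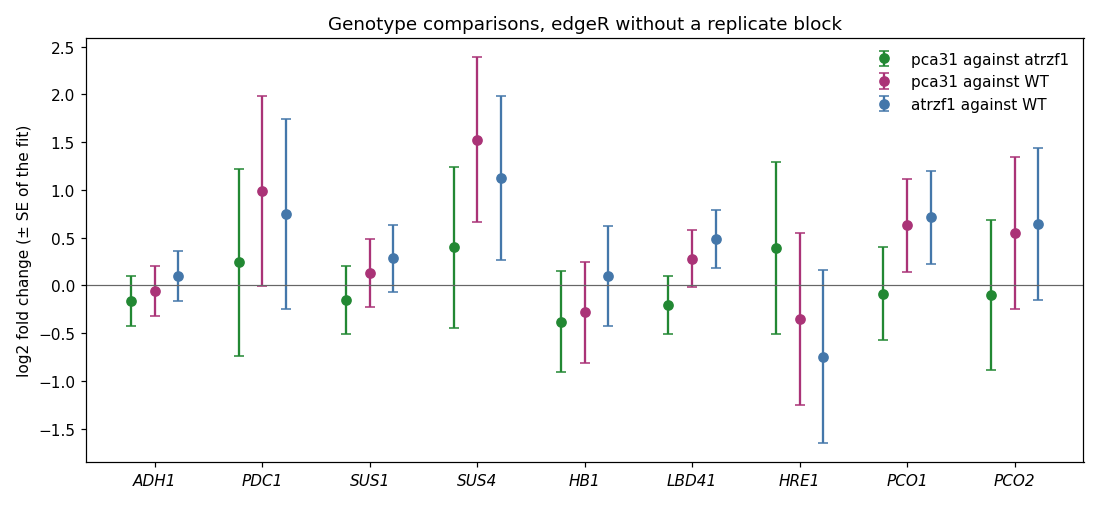
Log2 fold change (± SE of the edgeR fit without a replicate block) of the 9 tested members for pca31 against atrzf1 (green), pca31 against WT (purple) and atrzf1 against WT (blue). The errors of SUS4, PDC1, HRE1 and PCO2, at 0.79 to 0.99, are far wider than those of ADH1, at 0.26.

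With the replicate number as a block, 0 of the 9 members were called in any genotype comparison, against 0.00484% of all genes in pca31 against atrzf1, 0.0435% in pca31 against WT and 0.0339% in atrzf1 against WT. At an unadjusted p under 0.05 the members numbered 0, 0 and 3 in these comparisons, against 4.42%, 8.45% and 3.73% of all genes. The 3 in atrzf1 against WT were LBD41 at 0.52 ± 0.20, PCO1 at 0.59 ± 0.25 and HRE1 at -0.81 ± 0.33. All 3 had an edgeR adjusted p of 0.999, and none of them is called changed here. LBD41 was higher in atrzf1 than in WT in 3 of 3 numbers, PCO1 was higher in 3 of 3 and HRE1 was lower in 3 of 3. The blocked fit of the same libraries picked these 3 genes, so the shared direction adds no support. The block turned the sign of PDC1 in atrzf1 against WT, to -0.034 ± 0.57, and that of HB1, to -0.061 ± 0.32. Both errors were smaller than in the fit without the block.

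Between the number 3 libraries the mutants and WT stood apart for 3 members. PDC1 (4.32 CPM in pca31 and 4.44 CPM in atrzf1, against 1.22 CPM in WT), SUS4 (3.82 and 2.51 against 0.354 CPM) and PCO2 (3.42 and 3.68 against 1.38 CPM) were at least 2-fold higher in both mutants. That is 3 of 9 members, against 3.11% of all genes, and it rests on 1 library of each genotype. In number 1 libraries 1 of 9 met the same rule, against 3.91% of all genes, and in number 2 libraries 1 of 9, against 5.95%. In pca31 against WT, 6 of 9 members were higher in number 3, 5 of 9 in number 2 and 5 of 9 in number 1, with median log2 differences of 0.45, 0.0021 and 0.14. In atrzf1 against WT these were 8, 2 and 4 of 9, with medians of 0.86, -0.042 and -0.16. Of all 20672 genes, 10324 were higher in number 3 in pca31 against WT and 9937 in atrzf1 against WT.

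Whether the difference between mutants and WT was itself larger in number 3 than in numbers 1 and 2 was tested with an interaction term, chosen after the levels of PDC1, SUS4 and PCO2 were seen. Of the 9 members 0 were called, against 0.00967% of all genes, and PDC1 and HB1 had an unadjusted p under 0.05, against 4.34% of all genes. PDC1 gave 2.38 ± 0.88 on the log2 scale (edgeR adjusted p = 0.988), HB1 1.22 ± 0.49 (1), SUS4 2.74 ± 1.29 (1) and PCO2 1.69 ± 0.82 (1), where the value in brackets is that adjusted p. The pattern of these genes in the number 3 libraries of the mutants therefore did not pass the test over all genes. Summed root markers in those libraries were 2251 CPM in pca31 and 1688 CPM in atrzf1, against 2507 CPM in WT, and their part in the pattern was not tested.

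Across the 36 pairs of tested members the Pearson correlation of log2 CPM over 9 libraries ran from -0.87 to 0.91, with a median of 0.065. PDC1 and PCO2 were the most alike (0.91), and SUS1 with HRE1 (-0.87) and LBD41 with HRE1 (-0.87) were the most opposed. SUS1 with PCO1 (0.79) and LBD41 with PCO1 (0.76) were also alike. These 9 libraries share 3 numbers, and after the mean of each number was subtracted PDC1 and PCO2 were at 0.74 and LBD41 and HRE1 at -0.75. The other pairs named above lay nearer to 0 on that scale, at -0.34 for SUS1 with HRE1, 0.25 for SUS1 with PCO1 and 0.48 for LBD41 with PCO1. Not all 36 pairs did so: SUS1 with SUS4 went from -0.021 to 0.59, and the median over the 36 was 0.23. The correlations are descriptions over few libraries.

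Genes with a pattern like that of ADH1 over the 9 libraries were CYP71B18 (r = 0.92), EMB3141 (0.88), AT1G03070 (0.85), AT5G61390 (0.85) and AT3G15300 (0.85), at mean levels of 0.670 to 3.43 CPM. After the mean of each number was subtracted the closest were AT2G38710 (0.99), EICBP.B (0.98), AT3G07930 (0.98), AT1G11330 (0.97) and AT1G34060 (0.97). With 9 libraries and 20672 genes such values say little about any 1 gene, and none of the other 9 members was searched in this way.

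The oxygen-sensing genes include ERF-VII factors and enzymes of the route that marks them for degradation. VRN2 and ZPR2, targets of that route outside the ERF family, are listed with them. RAP2.12, RAP2.3 and RAP2.2, the ERF-VII factors that are transcribed under normal oxygen, were all more abundant than HRE1. RAP2.12 was at 241 to 418 CPM over the 9 libraries, RAP2.3 at 301 to 857 CPM and RAP2.2 at 19.5 to 40.2 CPM. In number 3, 6 of 14 of these genes were higher and 2 were lower (edgeR), against the 23.6% and 22.1% of all genes given above, and with library totals these were 9 and 1. RAP2.3 was at 849 CPM in pca31, 857 CPM in atrzf1 and 525 CPM in WT in number 3, against 301 to 402 CPM in numbers 1 and 2, a log2 fold change of 1.05 ± 0.15 (edgeR adjusted p = 0.000194). RAP2.12 rose by 0.56 ± 0.13 on the log2 scale, and RAP2.2 gave no call. The ERF-VII genes called in number 3, HRE1, RAP2.3 and RAP2.12, were thus all higher.

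Among the enzymes of the same route, the arginyl transferase genes ATE1 (0.84 ± 0.18) and ATE2 (0.86 ± 0.31) rose in number 3, as did PCO5 (0.71 ± 0.14). PCO4, a cysteine oxidase not known for induction by hypoxia, fell by 0.55 ± 0.18 on the log2 scale. The call of ATE2 was lost without any 1 of 6 libraries (log2 fold change 0.50 without atrzf1 library 3), and that of PCO4 without WT 2, WT 3, atrzf1 1 or atrzf1 3 and with library totals (-0.20). For ATE2 the 6 were WT 2, atrzf1 1, 2 and 3, and pca31 1 and 3. With TMM scaling the cysteine oxidase genes split, with PCO2 and PCO5 higher and PCO1 and PCO4 lower. PCO3 and the ubiquitin ligase gene PRT6 were not called. With library totals PCO1 and PCO4 were no longer called, and PCO2 was not called without pca31 library 3 or atrzf1 library 3. VRN2 rose by 1.08 ± 0.23. ZPR2 was at 0.332 CPM in pca31, 0.984 CPM in atrzf1 and 1.10 CPM in WT in number 3, against 1.78 to 6.41 CPM in numbers 1 and 2, a log2 fold change of -2.3 ± 0.49. Of the 14 genes 0 were called in any genotype comparison by edgeR, with or without the block, and 0 had an unadjusted p under 0.05 without the block. With the block 2 of the 14 did in pca31 against WT, where 8.45% of all genes did, and 0 in the other comparisons.

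Other genes of fermentation and sucrose cleavage gave 1 higher and 1 lower call among 14 tested in number 3, where 45.7% of all genes were called, and 4 higher and 1 lower with library totals. SUS3, another sucrose synthase, was at 8.51 CPM in pca31, 10.4 CPM in atrzf1 and 13.9 CPM in WT in number 3, against 1.38 to 3.31 CPM in numbers 1 and 2. Its log2 fold change of 2.23 ± 0.25 (edgeR adjusted p = 2.73e-05) was opposite to that of SUS1. HB2, the second phytoglobin, fell by 0.84 ± 0.14 in number 3 (edgeR adjusted p = 0.000523), whereas HB1 was not called. PDC2, the other main pyruvate decarboxylase, was at 36.3 to 67.5 CPM, well above PDC1, and was not called. SUS2 had the largest genotype estimate in this list, 2.14 ± 0.91 in pca31 against WT (unadjusted p = 0.0443, edgeR adjusted p = 1), at levels of 0.432 CPM or less.

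Another 38 genes of the core hypoxia response, which Arabidopsis cell types share when oxygen is low, were followed beside the 10, and 35 of them passed the filter. Of the 38, 1 is also in the oxygen-sensing list and 2 are also in the fermentation and sucrose list, so these genes count in both. In number 3, 13 of the 35 were higher and 6 were lower (edgeR), against 23.6% and 22.1% of all genes, and with library totals 18 were higher and 5 lower. Their median log2 fold change was 0.20, against 0.031 over all genes. AT5G66985 had the largest change, 5.48 ± 0.75, and was at 3.66 to 5.52 CPM in number 3 and 0 to 0.533 CPM elsewhere, so that it passed the filter mainly through number 3. PHI-1, a gene of the phosphate-responsive family, was at 33.3 CPM in pca31, 62.8 CPM in atrzf1 and 84.5 CPM in WT in number 3, against 1.10 to 6.15 CPM in numbers 1 and 2 (3.99 ± 0.21). AT4G39675 (3.49 ± 0.19), AT1G19530 (2.54 ± 0.22), AT1G33055 (1.95 ± 0.20), UKL3, a uridine kinase (1.46 ± 0.14), and AT4G24110 (1.27 ± 0.35) also rose, the last not called without pca31 library 3 (0.85) or atrzf1 library 3 (1.12). CYP707A3, which breaks down abscisic acid, fell by 1.55 ± 0.33.

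**Figure D4:**
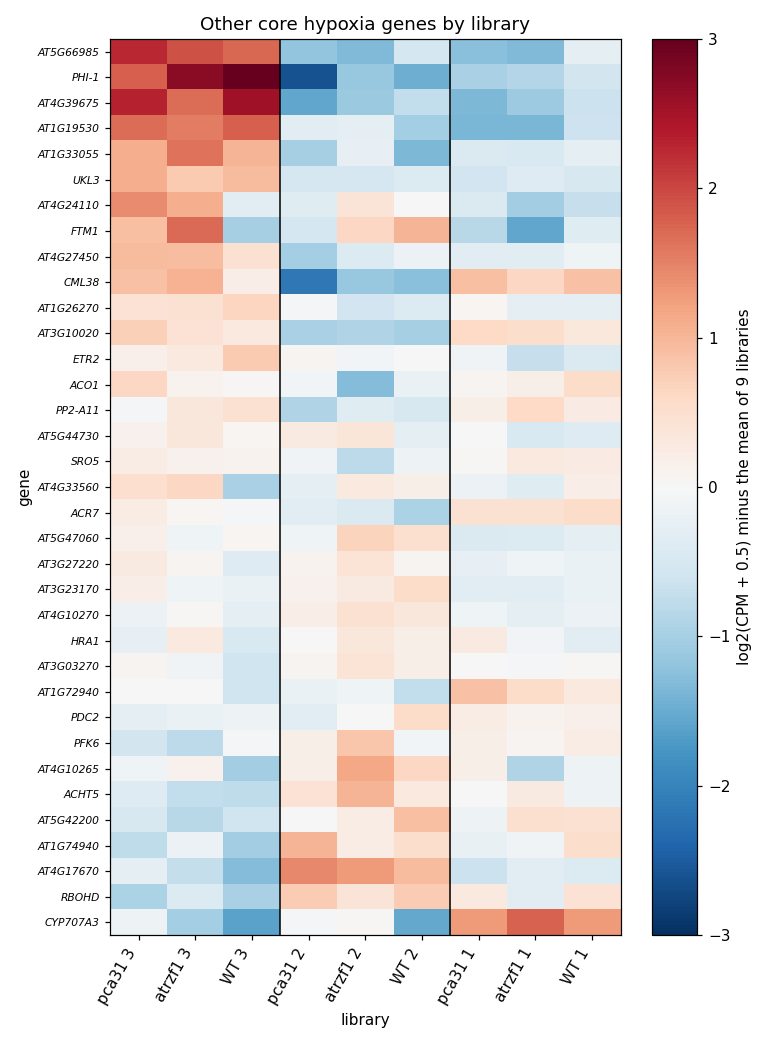
Level of each of the 35 tested genes of the wider core list in each library, as log2 CPM minus the mean over 9 libraries, with libraries grouped by number (3, 2 and 1 from left to right). The rows at the top, from AT5G66985 to UKL3, are high in all 3 libraries of number 3, while AT4G24110 and FTM1 are higher there in the mutants than in WT.

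In the genotype comparisons 0 of the 35 were called by edgeR, with or without the block, and 0 had an unadjusted p under 0.05 without it. With the block 2 of the 35 did in pca31 against atrzf1, 4 in pca31 against WT and 3 in atrzf1 against WT. The shares of all genes were 4.42%, 8.45% and 3.73% with the block, and 0.213% to 0.924% without it. All estimates that follow are without the block unless stated. The largest estimates among genes at 5 CPM or more were those of PHI-1 in pca31 against atrzf1 (-0.88 ± 1.59) and in pca31 against WT (-1.27 ± 1.60), and of AT4G39675 in atrzf1 against WT (-0.82 ± 1.39), none of them called. Only a blocked DESeq2 fit, which was added later, called 1 of the 35, PHI-1, which was lower in pca31 than in WT by 1.07 ± 0.28 on the log2 scale (adjusted p = 0.0249), where edgeR with the block gave an adjusted p of 0.336. FTM1, a stearoyl-ACP desaturase gene, was at 7.31 CPM in pca31 and 13.2 CPM in atrzf1 in number 3, against 1.61 CPM in WT. In number 2 its order was the other way, at 2.40 CPM in pca31 and 5.96 CPM in atrzf1, against 8.01 CPM in WT. FTM1 is 1 of 4 of the 35 genes that were at least 2-fold above WT in both mutants in number 3, against 3.11% of all genes. The others were AT4G10265, AT4G24110 and AT4G33560, and this count rests on 1 library of each genotype. In number 1 libraries 0 of 35 met the same rule, against 3.91% of all genes, and in number 2 libraries 1 of 35, against 5.95%. The interaction term of FTM1 was 3.59 ± 0.75 with an edgeR adjusted p of 0.460.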

How the data were processed

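The deposited files hold raw counts per gene, 1 library per file, made by the authors with Bowtie2 and bedtools on TAIR10, per the submitters' processing notes. Library preparation used a Lexogen QuantSeq kit, per the labels' protocols. The sources used here do not give versions, annotation, read filters or the strand of counting. Of 33323 identifiers, 0 of which name no gene, 32835 matched the RefSeq annotation of TAIR10.1, which gave symbols, coordinates and sequences.

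The 10 members and all lists were chosen with earlier results of these data known. The tests ran in edgeR 4.0.16 (R 4.3.3): filterByExpr (minimum count 10, minimum total 15), TMM scaling and the quasi-likelihood test over all 9 libraries, with Benjamini-Hochberg adjustment over 20672 genes and a threshold of 0.05. Genotype was the only term for genotype contrasts, and genotype and replicate number were terms for number contrasts. CPM values use TMM-scaled library sizes, a ± beside CPM is the SD, and beside a log2 fold change it is the fit's standard error. Correlations used log2 CPM with a prior count of 2. The floor of 3 counts covers counting error only.

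Same-numbered libraries deviated together: the correlations of their deviations from the genotype means were 0.585 to 0.849 over 9 pairs, all above 0.1. The numbers were therefore taken to pair the libraries. Genotype estimates and their errors nonetheless come from the fit without the block unless stated, which leaves the differences between numbers in the errors. The blocked fit is given by its calls, and its estimates are printed for some members only. The smallest chi-square per degree of freedom between libraries of a genotype was 181, so none was treated as a duplicate. Alternatives were DESeq2 1.42.0, limma-voom (limma 3.58.1), other scalings and filters, each library left out and the replicate block. DESeq2 with the block, numbers 1 and 2 alone and the interaction term were added after the data were seen. The scripts were tested on simulated data. Every member is named in each genotype comparison, but not in every number contrast or for the interaction term. Of the wider core list, up to 8 called genes with the largest change are named, or up to 4 uncalled ones at 5 CPM or more, and FTM1, AT4G10265 and AT4G33560 were added after their values were seen.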

Additional observations from a re-analysis of the deposited data

How the results depend on the processing

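Every genotype comparison gave 0 called members under each alternative run, with DESeq2, limma-voom, the replicate block and each library left out included. The smallest adjusted p of a member in any of them was 0.436. The call of HRE1 in number 3 held under each alternative run. With the replicate block 7 genes of all tested were called in atrzf1 against WT and 9 in pca31 against WT, and the block changed no call of a member. DESeq2 called 4 and 5 genes in these comparisons, numbers 1 and 2 alone with the block gave 16 and 28, and DESeq2 with the block gave 47 and 116. That last fit called 2 genes in pca31 against atrzf1 and 1 of the other core genes in pca31 against WT. Signs of uncalled changes turned in places, and the cause was not tested. In atrzf1 against WT, PDC1 gave -0.066 with limma-voom, -0.034 with the replicate block, -0.098 with DESeq2 and the block and -1.11 in numbers 1 and 2 alone. HB1 gave -0.11, -0.061, -0.068 and -0.50 in the same order, and in numbers 1 and 2 alone ADH1 gave -0.16 and PCO2 -0.28. In pca31 against atrzf1, ADH1 gave 0.16 in numbers 1 and 2 alone, and library totals gave 0.014 for SUS1, 0.11 for PCO1 and 0.032 for PCO2. In pca31 against WT, ADH1 gave 0.12 with library totals, and numbers 1 and 2 alone gave 0.017 for HRE1 and -0.39 for PCO2. Library totals moved the median log2 change of all genes to 0.15 in pca31 against atrzf1, 0.20 in pca31 against WT and -0.13 in number 2 against number 1. In number 2 against number 1, ADH1 gave 0.031 with DESeq2 size factors and 0.031 with DESeq2, and SUS4 gave -0.025 with limma-voom.

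Leaving out 1 library at a time gave 1839 to 6259 genes called in number 2 against number 1, with 0 to 2 members. It gave 0 to 1 genes in pca31 against atrzf1 and in pca31 against WT. In atrzf1 against WT the log2 fold changes ran from -0.16 to 0.24 for ADH1, -1.25 to 1.22 for PDC1, -0.17 to 0.52 for HB1, -1.91 to 0.28 for HRE1 and -0.37 to 1.04 for PCO2. In pca31 against atrzf1 they ran from -0.30 to 0.078 for ADH1, -0.86 to 2.23 for PDC1, -0.39 to 0.034 for SUS1, -0.44 to 0.93 for SUS4, -0.41 to 1.55 for HRE1, -0.56 to 0.38 for PCO1 and -1.12 to 0.90 for PCO2. In pca31 against WT they ran from -0.11 to 1.36 for PDC1, -0.090 to 0.42 for SUS1, -0.54 to 0.10 for HB1, -1.16 to 0.67 for HRE1 and -0.48 to 0.94 for PCO2. In number 3 against the others ADH1 ran from -0.12 to 0.34. In number 2 against number 1 the ranges were -0.16 to 0.14 for ADH1, -0.084 to 0.80 for PDC1, -0.84 to 1.17 for SUS4 and -0.058 to 0.27 for LBD41. HRE1 was called there without pca31 library 2 (-1.16, edgeR adjusted p = 0.0125). Low counts limit PDC1 (11 to 130 counts), SUS4 (9 to 115), PCO2 (19 to 103) and HRE1 (21 to 354).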

Other observations

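In number 2 against number 1, 4 of the 35 other core hypoxia genes tested were higher and 7 were lower, against 9.87% and 12.1% of all genes, so the share of higher calls was about that of all genes. HB1 was the only member called there. CML38, a calmodulin-like calcium sensor, was at 4.62 CPM in pca31, 9.77 CPM in atrzf1 and 8.90 CPM in WT in number 2, against 34.4 to 41.7 CPM in number 1. Its log2 fold change was -2.36 ± 0.29 (edgeR adjusted p = 0.000318). AT3G10020 was at 90.0 to 95.4 CPM in number 2, against 223 to 272 CPM in number 1 (-1.44 ± 0.15). CYP707A3, an abscisic acid hydroxylase gene, fell by 2.1 ± 0.35 on the log2 scale. AT4G17670 rose, at 12.9 to 18.4 CPM against 3.99 to 5.14 CPM (1.76 ± 0.25). ACR7 (-1.08 ± 0.18), AT1G72940 (-1.0 ± 0.20) and PP2-A11 (-0.95 ± 0.17) were lower as well. PHI-1 (-1.07 ± 0.28), which was far higher in number 3, was lower in number 2 than in number 1, a call lost without WT 2, pca31 1 or pca31 2 (-1.0, -0.73 and -0.76). With library totals 2 were higher and 7 lower.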
